A study of Mus musculus with 2 samples.

Results

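Chemokines are small secreted proteins that steer migrating cells along gradients, and their receptors are seven-helix receptors that couple to inhibitory G proteins. Ligands are named by the spacing of their first cysteines (CC, CXC or CX3C), and many bind several receptors. Fibroblasts are a known source of stromal and inflammatory chemokines, whereas most chemokine receptors are known from leukocytes. Genes of this system on the array were taken by name, so genes of the system under other symbols were left out. Taken were those whose symbol begins with Ccl, Cxcl, Ccr, Ccrl or Cxcr followed by a number, together with Cx3cl1, Xcl1 and Cx3cr1. This gave 51 of the 27745 gene names on the array, measured by 66 probes: 34 ligand genes with 43 probes and 17 receptor genes with 23.

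Transcript levels were compared in mouse embryonic fibroblasts (MEFs, connective tissue cells grown from embryos) of genotype LATS2-/- (KO) and LATS2+/+ (WT), which the source labels write as LAT2-/- and LAT2+/+. Both came from C57BL/6J mice, were left untreated and had no transgene named, and Lats2 encodes a kinase of the Hippo growth-control pathway. Both RNAs were hybridised together to Agilent 2-colour arrays, once with KO in Cy5 and WT in Cy3 and once with the dyes exchanged. The embryos' age, the number of embryos pooled and the part of Lats2 that is deleted are not given in the sources used here. Since the labels name no separate preparations, the 2 arrays count as repeat hybridisations of 1 pair of RNAs. Each genotype therefore has 1 replicate, the differences have no replicate check and no test between genotypes was possible.

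Lats2 itself was examined first, as a check of the labels. Of its 4 probes on chromosome 14, 3 were higher in the RNA labelled KO. The brightest (56644080 to 56644139) gave normalised signals of 7735 and 8353 units in KO against 5417 and 5462 in WT, a log2 ratio of KO over WT of 0.56. The others were at 0.57, 0.63 and -0.35, the last of which lies at 56676512 to 56676571. Whether any probe lies in the deleted part is not known here. Thus only the probe at -0.35 shows a lower transcript level in the RNA labelled KO, and the other 3 do not. The study examined Lats2 protein in its KO MEFs by western blot, which the arrays do not measure, and whether a transcript persists without protein was not tested here. The samples are named by their labels (RNA labelled WT, RNA labelled KO), and every direction below rests on the labels. Of the fibroblast markers 12 of 12 stood well above background in 1 or both RNAs, although Vim was dim and in KO passed on 1 array. So did 8 of 14 leukocyte, 0 of 7 endothelial, 2 of 6 epithelial, 2 of 5 red blood cell and 3 of 5 neural markers. On each array 41174 probes were read, with median signals of 96.8 and 98.5 units in Cy5 and 60.1 and 58.2 in Cy3 over background medians of 30 to 36.

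A gene is said here to be above background when Feature Extraction, the scanner software, marked its brightest probe as well above background on both arrays in at least 1 of the RNAs. Of the 51 chemokine genes 16 were (31.4%), against 15877 of 27579 genes with a usable probe (57.6%). They comprised 13 of the 34 ligands and 3 of the 17 receptors. A gene was called when its ratio reached 2-fold in the same sense on both arrays and the brighter RNA was well above background on both. The threshold of 2-fold follows the study's methods, which for its KO MEFs also asked for p under 0.05 in a t-test. That second condition was not part of the calls here. Among the chemokine genes 1 was called higher in the RNA labelled KO, Cxcl12, and 1 lower, Cxcr6. Over all genes above background 2.95% were called higher and 2.59% lower, and the 2 calls are 12.5% of 16 genes. With a count this small the shares are a description only.

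**Figure D1:**
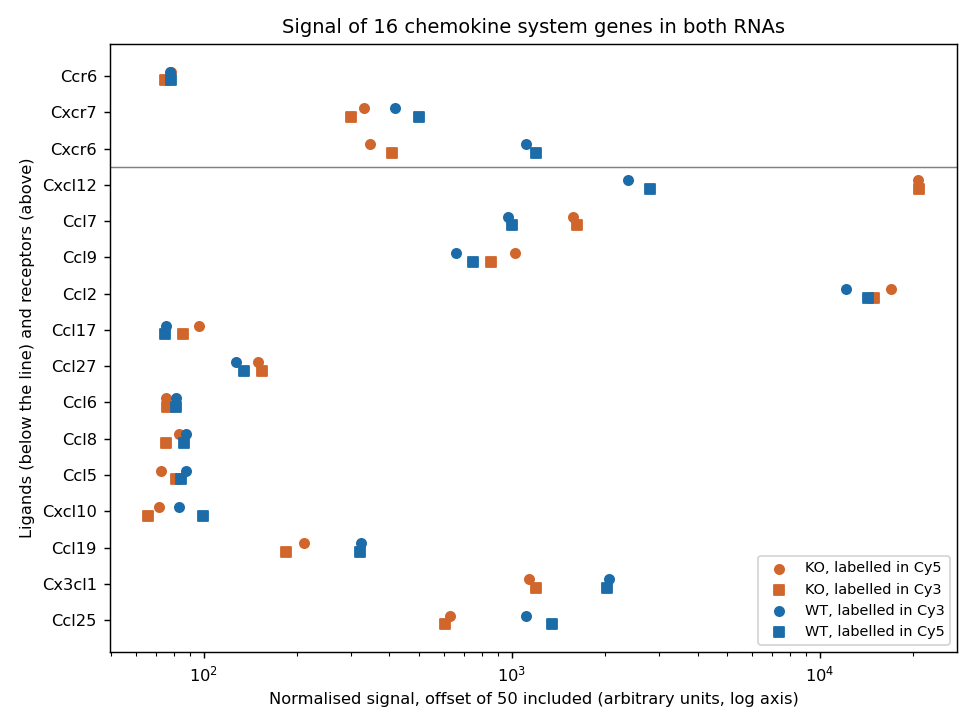
Normalised signal in arbitrary units, with the offset of 50 included, on a log axis, for the 16 genes above background. Orange points are the RNA labelled KO and blue points the RNA labelled WT, circles the array with KO in Cy5 and squares the array with KO in Cy3. Cxcl12 lies at 20844 and 20921 in KO against 2381 and 2805 in WT, and 6 genes (Ccr6, Ccl6, Ccl8, Ccl5, Ccl17 and Cxcl10) lie under 100 in every channel. Positions of different genes are not comparable, since each probe binds with its own strength.

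Promoter sequences of the 2 called genes and of Cxcl10 are shown because they differ in the elements through which chemokine genes are commonly induced. Each run is the 250 bases before the RefSeq transcription start, 5′ to 3′ on the gene's strand, on the GRCm38.p6 build. Capitals mark every match, on either strand, to a kappaB motif (bound by NF-kB), the AP-1 motif TGANTCA, the interferon element GAAANNGAA, the GC box GGGCGG or the TEAD motif GGAATG. The GC box and the TEAD motif (TEAD factors are the DNA-binding partners of the Hippo effectors YAP and TAZ) were added after the values had been seen.
Cxcl12, chr6:117168285-117168534, plus strand: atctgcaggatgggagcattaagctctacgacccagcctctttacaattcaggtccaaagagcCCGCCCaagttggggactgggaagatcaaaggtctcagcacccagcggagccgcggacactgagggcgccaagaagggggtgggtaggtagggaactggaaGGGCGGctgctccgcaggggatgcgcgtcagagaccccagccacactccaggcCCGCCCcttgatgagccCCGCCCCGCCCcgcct
Cxcr6, chr9:123806227-123806476, plus strand: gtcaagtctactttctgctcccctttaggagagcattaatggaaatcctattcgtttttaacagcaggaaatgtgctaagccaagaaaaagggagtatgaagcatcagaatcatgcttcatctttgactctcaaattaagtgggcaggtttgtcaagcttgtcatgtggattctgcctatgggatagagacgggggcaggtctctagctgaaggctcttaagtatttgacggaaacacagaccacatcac
Cxcl10, chr5:92348890-92349139, minus strand: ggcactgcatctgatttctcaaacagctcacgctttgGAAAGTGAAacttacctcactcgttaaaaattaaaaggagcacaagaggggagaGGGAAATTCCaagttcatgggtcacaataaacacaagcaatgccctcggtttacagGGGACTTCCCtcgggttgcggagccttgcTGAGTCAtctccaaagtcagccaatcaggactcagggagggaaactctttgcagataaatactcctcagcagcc
The Cxcl12 run holds 5 GC boxes, of which the last pair share 1 base, and none of the other motifs. The Cxcr6 run holds no match to any of them, which says only that these letters are not in this window. The Cxcl10 run holds 2 kappaB matches, 1 AP-1 match and 1 interferon element.

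Of the 16 genes above background, 13 had 17 promoters in the table. A kappaB match stood in 3 of the 17 promoters (Ccl9, Ccr6 and Cxcl10), against 3.90% of all 32851 promoters. The AP-1 motif was in 3 (Ccl9, Ccl27 and Cxcl10; 6.75% of all promoters) and the interferon element in 2 (Ccl19 and Cxcl10; 7.13%). A GC box was in 4 (Cxcl12, Cx3cl1, Ccl27 and Cxcr7; 32.7%) and the TEAD motif in 2 (Ccl17 and Ccr6; 12.6%). The kappaB genes Ccl9, Ccr6 and Cxcl10 had log2 ratios of 0.41, -0.03 and -0.41, so they did not share a direction. The Ccl27 name on the array is Ccl27a in RefSeq, and Cxcr7 is Ackr3.

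Cxcl12, a CXC ligand known for holding blood stem cells in the bone marrow and guiding cells in the embryo, had the highest ratio of the chemokine genes. Its brighter probe (chromosome 6, 117146828 to 117146887 on mm8) carries the accession of transcript variant 2. It read 20844 and 20921 units in the RNA labelled KO against 2381 and 2805 in the RNA labelled WT. Both KO readings were above both WT readings, but they are repeat hybridisations of 1 pair of RNAs and not replicates. The log2 ratio was 3.13 on the array with KO in Cy5 and 2.90 after the dye exchange, a mean of 3.01 or 8.08-fold. The second probe (117140075 to 117140134), listed under variant 1, read 8034 and 8841 against 802 and 812. Its ratios were 3.32 and 3.45, with a mean of 3.38. Both probes were thus higher in the RNA labelled KO, and they lay 0.37 apart. Whether either probe also binds other Cxcl12 transcripts was not tested, so the variants are not told apart here. Across 40875 probes the log2 ratio of 1 probe varied between arrays with an SD of 0.132, which gives 0.0935 for a mean of both. These SDs hold hybridisation and dye error only.

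The receptors of Cxcl12 were compared on the same arrays. Cxcr4, the signalling receptor, had 2 probes, and neither was above background on both arrays in either RNA. The brighter read 85.4 and 67.9 units in KO and 80.7 and 66.5 in WT, and was flagged above background only in KO on the array with KO in Cy5. Cxcr7 (Ackr3), the atypical receptor that takes up and removes Cxcl12, was above background in all channels. It read 332 and 300 units in KO against 418 and 499 in WT (chromosome 1, 92046399 to 92046458). Both KO readings were below both WT readings. The log2 ratio was -0.33 on the array with KO in Cy5 and -0.73 on the other, a mean of -0.53, and the gene was not called. The ligand was thus 8.08-fold higher while the only one of these receptors above background stood at 69.1% of its WT level.

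Cxcr6, the receptor of the membrane-bound ligand Cxcl16 and known from T cells and natural killer T cells, was called lower. Its single probe (chromosome 9, 123660185 to 123660244) read 345 and 407 units in the RNA labelled KO against 1111 and 1196 in the RNA labelled WT. Both KO readings lay far below both WT readings. The log2 ratios were -1.69 and -1.55, a mean of -1.62, which is 32.5% of the WT level. With median centring in place of loess the ratios were -0.99 and -2.27, and the call was lost. RefSeq places Cxcr6 within Fyco1, a gene of the opposite strand, whose brightest probe had a ratio of -0.25. Across all Fyco1 probes the ratios ran from -0.26 to 0.20. The Cxcr6 ligand Cxcl16 had 2 probes that were not above background in any channel, at 0.08 and 0.02.

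Because Cxcr6 is best known from leukocytes, leukocyte markers are given beside it. Ptprc, the pan-leukocyte antigen CD45, and Emr1, Tyrobp, Aif1 and C1qa were not above background in either RNA. Of the 14 markers on the array 8 were above background. Cd14, a receptor for bacterial lipopolysaccharide, was called lower (-1.05) and Lyzs, lysozyme, was called higher (2.15-fold). The summed signal of the list was 2489 and 2431 units in KO and 1935 and 1938 in WT, and its difference rested on the 2 called genes. Without Lyzs the sums were 1197 and 1153 in KO and 1335 and 1343 in WT. Without Lyzs and Cd14 they were 1036 and 964 in KO and 992 and 964 in WT. The closeness of these last sums is partly built in, since the signal of each of the other 12 markers includes the offset. Of these markers Ptprc, Emr1, Itgam, Tyrobp, Aif1 and C1qa were also not above background, and the genes left out were those called. Whether leukocyte content differed between the RNAs was therefore not tested by these sums. In bulk RNA, fewer cells of a type and less RNA per cell cannot be told apart. The summed fibroblast markers were lower in KO, with 163074 and 156185 units in KO and 238561 and 233119 in WT. Ratios of the 12 markers ran from -1.69 (Postn) to 0.90 (Fn1), with a median of -0.43. In that list Postn, a matrix protein, was called lower (-1.69), and without it the sums were 140530 and 136246 in KO and 165882 and 168520 in WT.

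**Figure D2:**
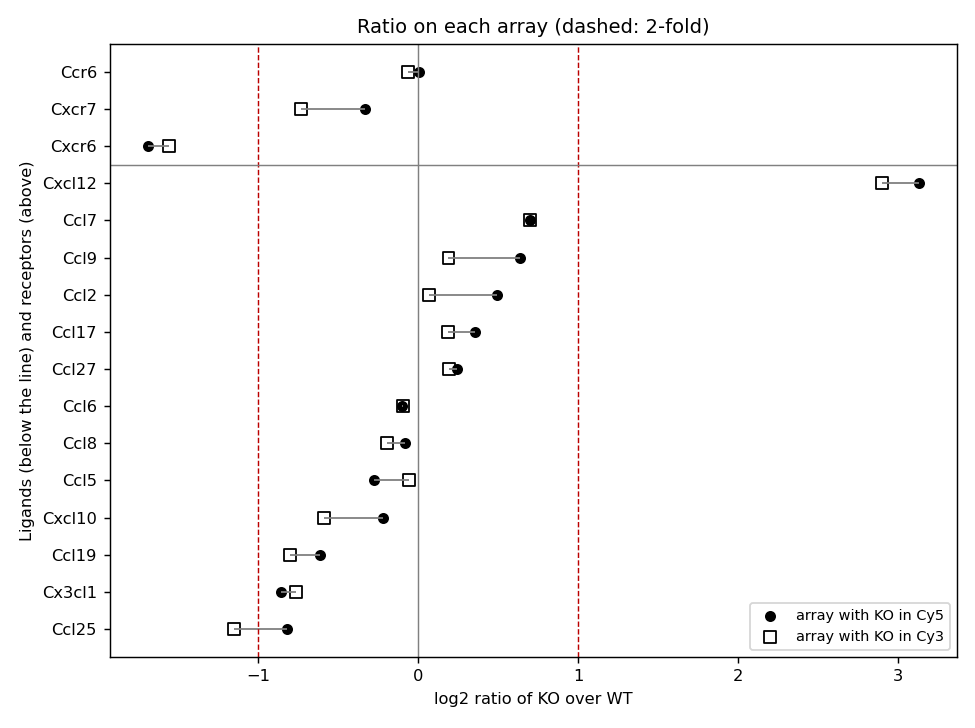
The log2 ratio of KO over WT of the 16 chemokine genes above background, circles for the array with KO in Cy5 and squares for the array with KO in Cy3, ligands below and receptors above the grey line. Cxcl12 and Cxcr6 pass the dashed lines of 2-fold on both arrays, and Ccl25 passes on 1 of them (-1.15 against -0.82).

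A group of 3 ligands with different known roles fell short of the 2-fold call, all lower in the RNA labelled KO. Ccl25, a thymus and gut chemokine that binds Ccr9, read 628 and 606 units in KO against 1108 and 1348 in WT (chromosome 8, 4359916 to 4359975). Its ratios were -0.82 and -1.15, with a mean of -0.99, and a second, dimmer probe was at -0.65. On the array with KO in Cy3 alone it passed 2-fold. Cx3cl1, fractalkine, a membrane-anchored ligand that also acts in adhesion, read 1136 and 1195 units in KO against 2057 and 2026 in WT. Its ratio was -0.81, and its second probe, not above background in any channel, was at -0.09. Ccl19, a ligand of Ccr7 that guides T cells and dendritic cells in lymph nodes, read 211 and 185 units in KO against 322 and 322 in WT. Its ratio was -0.70, while its second probe was not above background in any channel and was at -0.04. Ccl19 has near-identical copies on mouse chromosome 4, so its probe may report more than 1 gene.

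The monocyte-attracting ligands Ccl2 and Ccl7, which share the receptor Ccr2, were both somewhat higher in the RNA labelled KO. Ccl7 read 1583 and 1623 units in KO against 973 and 1001 in WT, and its ratio was 0.70 on each array. Its second probe gave 0.73. Ccl2 was spotted 10 times per array and averaged 17031 and 14963 units in KO against 12117 and 14260 in WT. On the array with KO in Cy5 its spots ran from 0.45 to 0.54 with a median of 0.49, and on the other from 0.04 to 0.11 with a median of 0.07. The spots of an array were thus tight (SD 0.0325 and 0.0211), whereas the arrays differed by far more than the spots. The mean of 0.28 for Ccl2 rests mainly on 1 array. Ccr2 was not above background in any channel.

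Ccl9, a macrophage inflammatory protein that binds Ccr1, read 1021 and 854 units in KO against 657 and 748 in WT, with ratios of 0.63 and 0.19. All KO readings were above all WT readings, but the size of the difference depended on the array. Ccl27, a skin T cell attractant, read 150 and 154 units in KO against 127 and 135 in WT, a ratio of 0.22. It too has near-identical copies on chromosome 4, and RefSeq has it overlap Il11ra1 of the opposite strand, whose brightest probe was at -1.06.

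At the dim end, values carry little information. Cxcl10, an interferon-induced ligand of Cxcr3, was above background only in the RNA labelled WT, with 83.1 and 99.3 units against 71.3 and 66.0 in KO. It was at least 1.31-fold lower in KO, and 1.32-fold as measured. A bound here sets the brighter RNA's mean against the higher of the dim RNA's own signal and the lowest signal among its probes above background. It is a mean over both arrays and carries no error, so a single array can fall below it. Ccl5 (RANTES), also above background only in WT, was at least 1.12-fold lower in KO. Ccl17, a ligand of Ccr4, read 96.6 and 85.4 units in KO against 75.3 and 74.8 in WT, where it was above background on 1 array, a ratio of 0.27. Ccl8, Ccl6 and Ccr6 had ratios of -0.14, -0.10 and -0.03. That of Ccl6 was close to the SD of a mean of both arrays (0.0935), and that of Ccr6 was below it. Ccr6 had opposite signs on the 2 arrays (0.01 and -0.06).

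These dim ligands are also those whose ratio depends on how background is treated. In Feature Extraction's own ratio, which adds no offset of 50, Cxcl10 was at -1.85 and -3.57 and Ccl17 at 1.55 and 1.23, so both would be called. There Ccl5 was at -1.19 and -0.62 and Ccl8 at -0.92 and -0.48, so neither would be called. The deposited log2 table held the same values. The 2-fold calls then read 2 higher (Ccl17 and Cxcl12) and 2 lower (Cxcl10 and Cxcr6), and no chemokine gene above background changed the sign of its mean ratio.

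**Figure D3:**
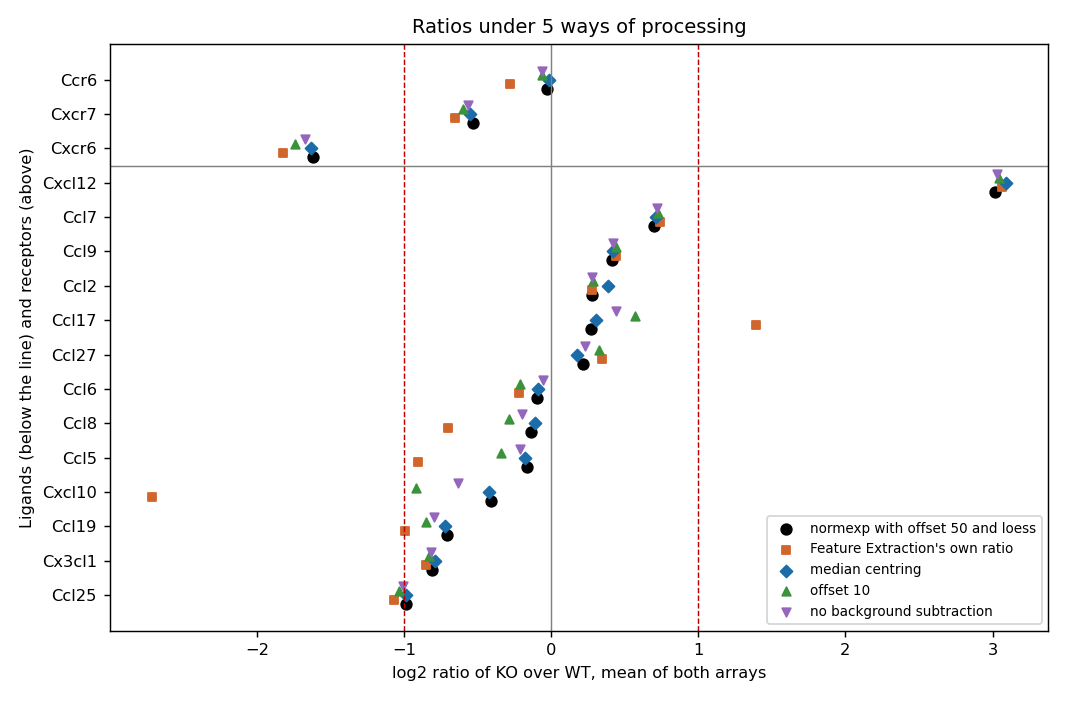
The mean log2 ratio of KO over WT of the 16 genes above background under 5 ways of processing, ligands below and receptors above the grey line, dashed lines at 2-fold. Cxcl12, Cxcr6 and Ccl7 stay together, whereas Cxcl10 runs from -0.41 to -2.71 and Ccl17 from 0.27 to 1.39.

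The remaining 35 genes were not above background in either RNA. They were 21 ligands (Ccl1, Ccl3, Ccl4, Ccl11, Ccl12, Ccl20, Ccl21c, Ccl22, Ccl24, Ccl28, Cxcl1, Cxcl2, Cxcl4, Cxcl5, Cxcl9, Cxcl11, Cxcl13, Cxcl14, Cxcl15, Cxcl16 and Xcl1). The 14 receptors included Ccr1, Ccr2, Ccr3, Ccr4, Ccr7, Ccr8, Ccr9, Ccr10, Ccrl1, Ccrl2, Cx3cr1, Cxcr3 and Cxcr4. Their brightest probes read 53.0 to 86.6 units, close to the offset of 50. Their ratios ran from -0.16 to 0.09 for ligands and from -0.12 to 0.15 for receptors. A difference between genotypes in any of these was not detectable at this signal. Ccl22, Ccr3 and Cxcr4 were flagged above background in part of the channels. The neutrophil attractants Cxcl1, Cxcl2 and Cxcl5, which inflamed fibroblasts are known to make, were among the undetected ligands.

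Ligand and known receptor were rarely both above background. For each of the 13 ligands above background a known receptor was written down, and it was above background for 1 of them, Cxcl12 with Cxcr7. The detected receptors Cxcr6 and Ccr6 had the reverse arrangement, since their ligands Cxcl16 and Ccl20 were not above background.

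The median log2 ratio of the 16 genes above background was -0.12 (-0.09 and -0.08 on the single arrays), and that of all 15877 genes was -0.003. For the 13 ligands it was -0.10, with 6 ratios above 0 and 7 below. At 1.5-fold on each array 2 chemokine genes were higher in KO (Cxcl12 and Ccl7) and 4 lower (Cxcr6, Ccl25, Cx3cl1 and Ccl19). The corresponding shares of all genes above background were 7.05% higher and 7.15% lower. Of the 16 mean ratios 6 were above 0 and 10 below.

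**Figure D4:**
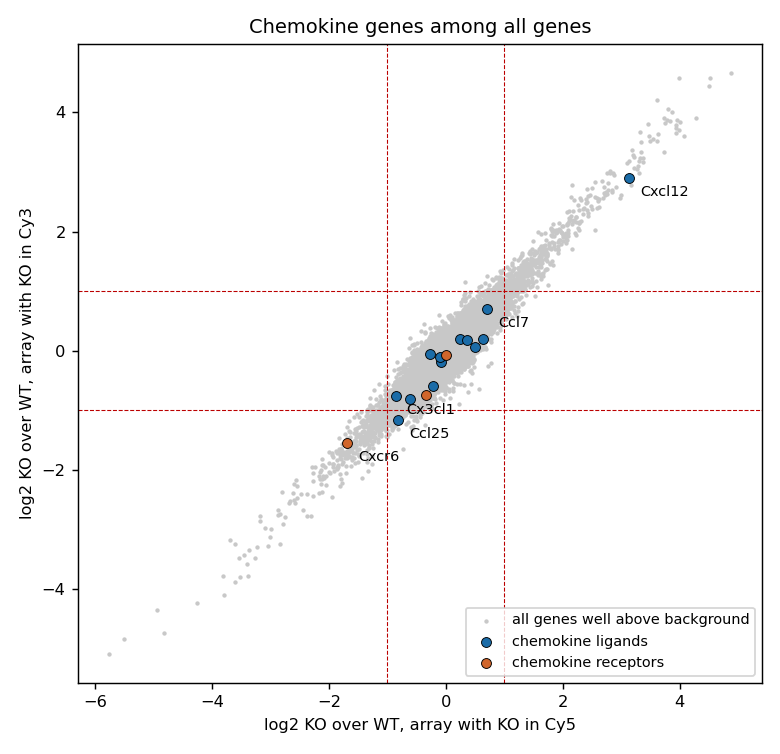
Each point is a gene above background, with its log2 ratio of KO over WT on the array with KO in Cy5 (horizontal) and with KO in Cy3 (vertical), grey for all genes, blue for chemokine ligands and orange for chemokine receptors, dashed lines at 2-fold. Cxcl12 lies among the highest genes at 3.13 and 2.90, Cxcr6 at -1.69 and -1.55, and the other 14 lie inside the dashed lines on at least 1 array.

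Chemokine genes lie in groups on the chromosomes, and 32 of the 51 have another within 1 Mb by the probe positions of the files (8 groups). In some groups the neighbours above background had mean ratios of both signs. Of these genes Ccl5, Ccl6, Ccl8 and Ccl17 were dim, so their signs carry little information. Whether neighbours move together was not tested. In the group on chromosome 11 from Ccl2 to Ccl1 (81853343 to 81993029), 3 of 6 genes were above background, and Ccl2 and Ccl7 at 0.28 and 0.70 stood beside Ccl8 at -0.14. In the next group on that chromosome (83341989 to 83480745) Ccl9 was at 0.41 and Ccl5 and Ccl6 at -0.16 and -0.10. On chromosome 8 (97639938 to 97700999), Cx3cl1 at -0.81 lay between Ccl22, not above background, and Ccl17 at 0.27. In the receptor group on chromosome 9 (123629914 to 123957008) Cxcr6 was the only one of 5 genes above background.

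**Figure D5:**
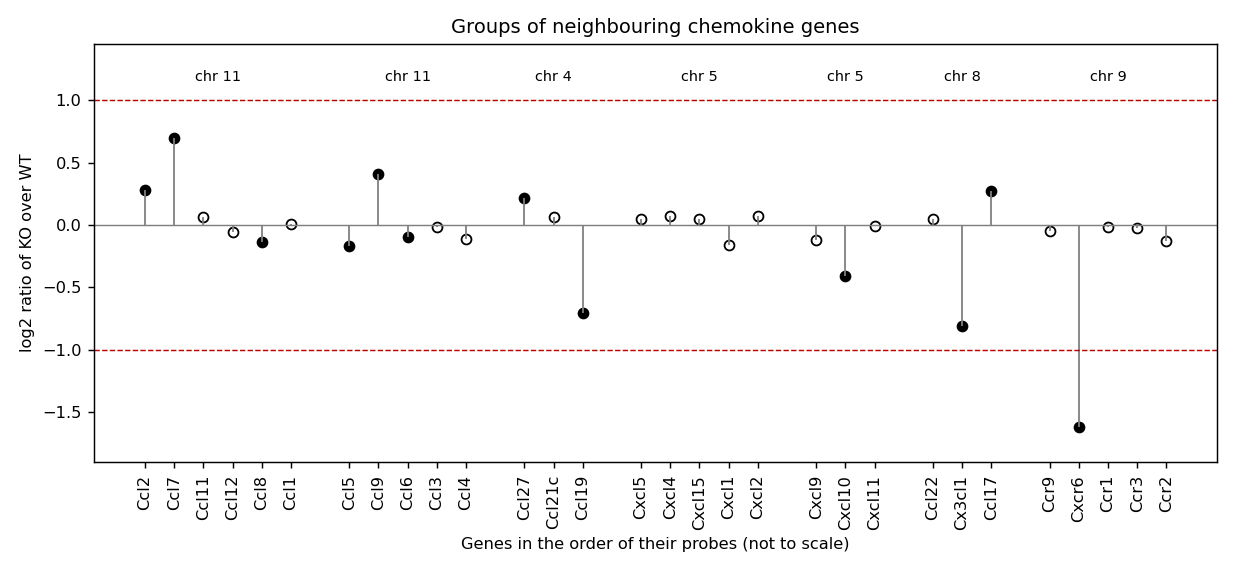
The mean log2 ratio of KO over WT of neighbouring chemokine genes in probe order, for the 7 groups with at least 3 genes. Filled points are above background in at least 1 RNA, open points are not, and dashed lines mark 2-fold. Filled genes of 1 group point both ways on chromosomes 11, 4 and 8, and the 5 genes of the first chromosome 5 group are all open.

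That first chromosome 5 group (91836379 to 91980708) also holds Ppbp, a platelet CXC chemokine whose symbol the name rule does not take. Ppbp read 182 and 146 units in the RNA labelled KO against 77.4 and 55.4 in WT, where it was not above background on either array. It was called and was at least 2.39-fold higher in KO. Of 16 further chemokine system genes on the array, 6 were above background, and Ppbp was the only one called. Over all genes 57.6% were above background, and of those 2.95% were called higher. Mif was at 0.32, Cmtm3 at 0.63, Cklf at -0.13 and Pitpnm3, not above background, at -0.22.

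Chemokine genes of fibroblasts are commonly induced through cytokine and Toll-like receptors and NF-kB. Of 31 such receptors and adaptors 27 were above background, 1 was called higher and 2 lower. Over all genes with a usable probe 57.6% were above background, and of those 2.95% were called higher and 2.59% lower. The same shares stand beside the NF-kB and signalling lists below. With lists this small the counts are a description only. Ltbr, the lymphotoxin beta receptor, read 7126 and 6996 units in KO against 769 and 833 in WT, a log2 ratio of 3.14. Ifngr2, a chain of the interferon gamma receptor, was at 0.97 and not called. Tlr2, a receptor for bacterial lipoproteins, was at -1.27 and Il1rl1, the interleukin 33 receptor, at -1.20, both called. The median of the 27 was 0.03.

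The NF-kB subunits and inhibitors numbered 16, of which 15 were above background. Nfkbiz, an inducible nuclear partner of NF-kB, was called higher at 1.26 and Bcl3, also a nuclear partner, was called lower at -1.19. Ikbke was at 0.71 and Relb at -0.52, and the DNA-binding subunits Rela and Nfkb1 were at 0.14 and 0.20. The median of the 15 was -0.08.

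Below the receptors, 24 of 26 listed signalling genes were on the array and 18 were above background. Rgs4, which speeds the shut-off of G proteins, was called higher at 1.41 and Rgs2, of the same family, was called lower at -2.04. Gng2, a G protein gamma subunit, was called higher at 1.09. Arrb1, beta-arrestin 1, which takes receptors out of signalling, was at -1.07 but reached only -0.97 on 1 array and was not called. The median of the 18 was 0.13.

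Of the 15 chemokine genes with several probes, 3 had several above background (Ccl7, Ccl25 and Cxcl12). Their probes lay 0.03, 0.33 and 0.37 apart and had the same sign. For Ccl19, Cx3cl1 and Ccl5 only 1 of the 2 probes was above background, and for the other 9 none was.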

How the data were processed

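RNA of LATS2-/- and LATS2+/+ MEFs was hybridised to 2 Agilent 2-colour whole mouse genome arrays with the dyes exchanged. Per the file headers, the authors read them with Agilent Feature Extraction (version 10.5.1.1 in the submitters' processing notes) and deposited, per spot, the mean signal and local background as intensity in arbitrary units and a log10 ratio of Cy5 over Cy3 after the software's own background and dye correction. The authors also deposited a log2 table of KO over WT, which equals the Feature Extraction ratio with both arrays turned the same way.

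For the values given here, normexp (offset 50) and then loess within each array were applied to the intensities, in limma (version 3.58.1; R version 4.3.3). The offset draws ratios of dim probes towards 0. Control spots (1639 of 45018) and outlier-flagged spots (390 and 378) were left out, spots of a probe were averaged, ratios of the array with KO in Cy3 were turned to KO over WT, and both arrays were averaged as 1 replicate. Normalised signals are channel values after Aquantile and include the offset. A probe counted as well above background on an array where at least 0.5 of its spots had the flag. The brightest probe stood for a gene. A call needed a log2 ratio beyond 1 or -1 on both arrays alike. No spot was saturated, and the number of arrays limits the precision.

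Every gene above background among those taken by the name rule was named. So were the called genes and the 2 highest and 2 lowest of each pathway list. Rela, Nfkb1 and Mif were named beyond that rule after their values had been seen. The members and lists were chosen with earlier results of these data known. Gene names are those of the files. By accession 48 of the 51 names matched RefSeq (GRCm38.p6), 3 under another symbol, and 37 had a promoter in the table. Probe positions are on mm8 (NCBI36). Protein sequences were not analysed here. Some members are counted but not reported here by name. Tested on a simulated dye swap of 41174 probes, the 2-fold rule recovered 192 of 200 probes changed 3-fold with 0 false calls. The background flag was not part of that simulation, and its changes were set with the offset included. It therefore does not show how often changes of dim genes are missed. Tables and plots were made in Python (3.11.15) using matplotlib 3.10.9, scipy 1.17.1, numpy 2.4.6 and pandas 2.3.3. The alternatives were Feature Extraction's ratio, the deposited table, median centring, an offset of 10, no background subtraction, the mean over all probes, outlier spots kept, each array alone, no filter on dim probes, a 1.5-fold threshold, the methods' t-test and limma.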

Additional observations from a re-analysis of the deposited data

How the results depend on the processing

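The calls of Cxcl12 as higher and Cxcr6 as lower remained under every alternative tried except median centring, which kept Cxcl12 and called 0 genes lower, and the methods' t-test after Benjamini-Hochberg, which called 0 and 0 chemokine genes and 0 and 0 of all genes (without adjustment, at p under 0.05, 1 and 1 chemokine genes and 408 and 356 of all genes). That test has 1 degree of freedom and sees hybridisation error only, as does limma. The deposited table and the scanner software's ratio each called 2 higher and 2 lower, adding Ccl17 and Cxcl10. A threshold of 1.5-fold gave 2 and 4. On single arrays 1 was called higher and 1 to 2 lower, the second being Ccl25 with KO in Cy3. The median of the chemokine genes above background was -0.47 in the deposited table and -0.47 in the software's ratio, -0.25 at offset 10, -0.13 where no background was subtracted, -0.10 under median centring, -0.026 over all 51 genes and between -0.090 and -0.080 on single arrays. The ligand median was -0.22 in both of the former, -0.21 at offset 10, -0.054 where no background was subtracted, 0.0011 over all 34 ligands and between -0.078 and -0.055 on single arrays. The offset by its construction shrinks ratios of dim probes. Otherwise the cause was not tested. Of 144 recomputed ratios of single genes, 109 moved by less than the SD between arrays and 35 by more, 27 to a larger and 8 to a smaller size. The sign changed once, for Ccr6 on the array with KO in Cy5 (0.01). No paired analysis was possible because a single pair of RNAs was hybridised, and the ratio within an array already sets KO against WT.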
